A study of Drosophila melanogaster with 48 samples.

Results

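The chorion protein genes Cp7Fc, Cp15, Cp16, Cp18, Cp19, Cp36 and Cp38 encode structural proteins of the outer eggshell of Drosophila melanogaster. They were taken as all probe sets that the platform annotation assigns to these symbols, which gave 7 probe sets for 7 of the 11982 genes named on the array, 1 probe set each. No measured value entered this choice. All 7 passed the filter on low signal that left 11261 probe sets for testing, and none lay at the floor of 1 signal unit on any of the 48 arrays.

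The chorion is laid down by the follicle cells that surround each oocyte, in the last steps of egg formation, on top of the vitelline membrane that the same cells secreted before. The major chorion genes lie in a cluster on the X chromosome and another on the third chromosome, and follicle cells copy both clusters many times over before transcribing them, a process called chorion gene amplification. Cp36 and Cp38, of the X cluster, are the early genes, transcribed while the inner layers of the chorion form, and the genes of the third-chromosome cluster are the late genes, of which Cp15 and Cp18 are switched on last. In the RefSeq gene table (assembly Release 6 plus ISO1 MT, used for names and neighbours only) the X cluster runs Cp7Fa, Cp7Fb, Cp7Fc, Cp36, Cp38 and the cluster on 3L runs Cp18, Cp15, Cp19, Cp16, with no other protein-coding gene starting inside either span. Cp7Fa and Cp7Fb were not analysed here. Cp7Fc is a further gene of the X cluster and is given on its own.

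The samples are whole-body RNA of adult flies of lines 158, 304, 362, 379, 380, 774, 786 and 859, whose larvae grew on medium enriched with tomato paste, on medium with 9% ethanol, or on the standard cornmeal-molasses medium that is also the base of both others. All flies were moved to standard medium after eclosion and kept at 25 °C with 12 hours of light, so each medium difference compares adults on 1 food that differed as larvae. Each line has 2 arrays per medium, 16 arrays per medium in all. The labels do not say what the line numbers stand for, give no sex, and give an age, 3 to 5 days, for 4 arrays only. Whether the 2 arrays of a line on a medium stem from separate cultures is not said, and p-values from tests on single arrays may therefore reflect technical spread alone.

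Array titles are spelled in 2 ways: a hyphen precedes the array number on 11 tomato and 4 ethanol arrays, and a space on 5 tomato, 12 ethanol and all 16 standard arrays. The cause of the spelling is not stated, and it was treated as a possible batch. Across the 11261 tested probe sets the 2 arrays of a line and medium correlated at 0.840 to 0.987 on tomato, 0.783 to 0.989 on ethanol and 0.945 to 0.991 on standard medium. The lowest signals on any array were 3399 among 3 yolk protein genes, 157 among 11 male accessory gland genes and 72.9 among 11 testis genes. Values below are log2 signals, and a difference of 1 is a doubling of the signal.

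On standard medium the early genes had narrow ranges. Cp36 ran from 13.29 to 14.23 over the 16 standard arrays with a median of 13.66, and Cp38 from 13.19 to 14.18 with a median of 13.62. The late genes ranged more widely, Cp15 from 11.05 to 14.23 (median 13.84), Cp18 from 11.75 to 14.09 (median 13.27), Cp16 from 11.44 to 13.46 (median 12.73) while Cp19 had a lowest value of 12.29 (median 13.32). Cp7Fc ran from 10.20 to 12.58 with a median of 11.64. Probe sets differ in how brightly they report, so these levels are compared between arrays and not between genes. Cp36, Cp38 and Cp15 came near the top of the scale on standard medium. Whether their ranges are compressed there was not tested.

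**Figure D1:**
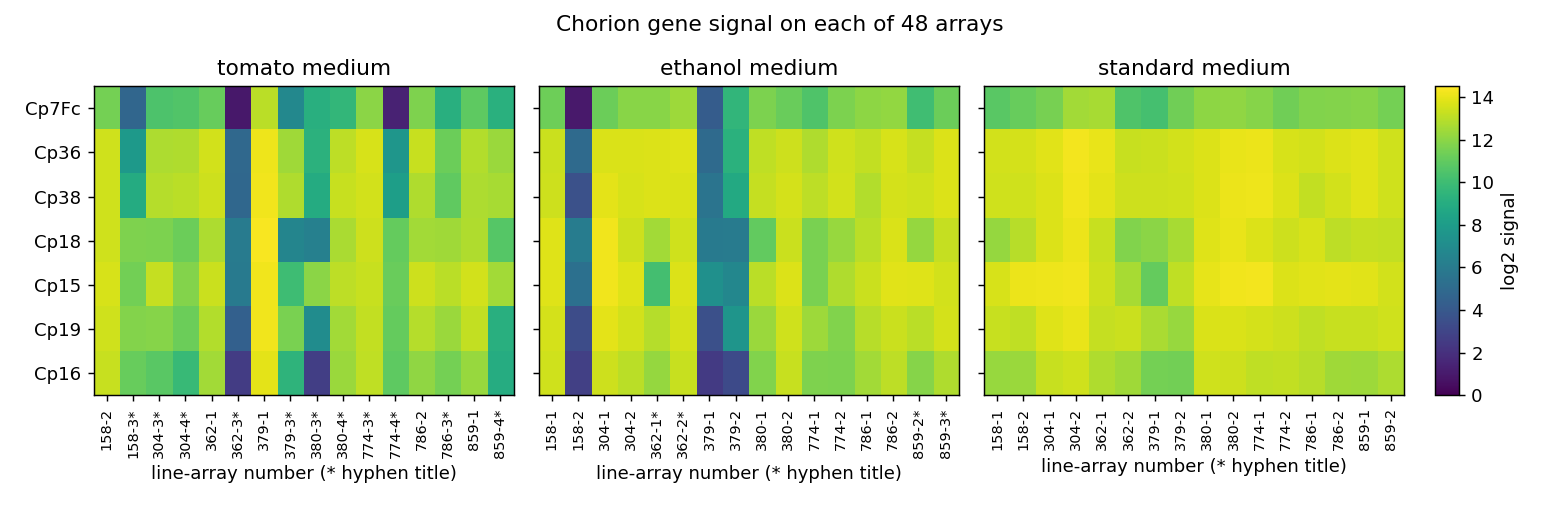
Log2 signal (colour) of the 7 chorion genes (rows) on each of the 48 arrays (columns), tomato left, ethanol in the middle and standard at the right; an asterisk marks a hyphen in the title. All standard arrays are bright, while 362 array 3 on tomato, 158 array 2 on ethanol and 379 array 1 on ethanol are dark for all 7 genes, and 158 array 3 and 774 array 4 on tomato are dark for the X cluster only.

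On tomato medium the signal of most chorion genes lay below the standard range on many arrays. Cp36 ran from 4.89 to 14.16 with a median of 12.75, and 12 of 16 tomato arrays lay under the lowest standard array. For Cp38 the tomato arrays ran from 4.84 to 14.18 with a median of 12.79, and 11 of them lay under the standard range. Among the late genes Cp16 ran from 2.59 to 13.89 on tomato with a median of 11.30, with 8 of 16 arrays under the standard range, and Cp18 and Cp19 also had 8 each. Cp15 differed least in this respect, since 2 of 16 tomato arrays lay under its wide standard range. Cp7Fc ran from 0.96 to 13.02 on tomato with a median of 10.02, and 8 of 16 arrays lay under the standard range. The groups overlapped for every gene. These counts pool the 2 title styles, while all standard arrays have a space. Cp7Fc, Cp16, Cp18 and Cp19 each had 8 of 11 hyphen-titled and 0 of 5 space-titled tomato arrays under the standard range. Cp36 had 10 of 11 and 2 of 5, Cp38 9 of 11 and 2 of 5, and Cp15 2 of 11 and 0 of 5.

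Averaged over lines, all 7 genes had a lower mean on tomato than on standard medium, and none passed the test. Of all probe sets, 1.15% were called at a limma adjusted p under 0.05 in this comparison, and 0.329% were called lower. The median difference of the 7 was -2.02, against -0.01 over all 11261 probe sets. An unadjusted p under 0.05 was reached by 5 of the 7, against 21.2% of all probe sets. Cp7Fc averaged 8.89 ± 1.74 on tomato and 11.56 ± 0.46 on standard medium (SD, n = 8 lines), a difference of -2.67 (SE 0.73, limma adjusted p = 0.075). Cp36 averaged 11.56 ± 1.39 on tomato and 13.71 ± 0.20 on standard medium (SD, n = 8 lines), a difference of -2.14 (SE 0.77, limma adjusted p = 0.14). Cp38, the other early gene, differed by -2.02 (SE 0.82). The late genes differed by -2.24 (Cp16, SE 1.11), -1.94 (Cp18, SE 0.69), -1.91 (Cp19, SE 0.93) and -1.38 (Cp15, SE 0.60), with limma adjusted p from 0.14 to 0.25.

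Line 379 stood apart from the others for the early genes in this comparison. Its tomato mean lay 0.02 below its standard mean for the early genes, while in the other lines the tomato minus standard differences of the early mean ran from -4.51 to -1.03. For the late mean line 379 was at -0.31, nearer to line 158 (-0.50) and line 786 (-0.77). The 2 tomato arrays of line 379 differed from each other. Against its standard mean, the early mean was at 0.75 on array 1 (space title) and -0.79 on array 3 (hyphen title). Cp16 was at 13.89 on array 1 and 9.43 on array 3, against 11.49 and 11.44 on standard medium. Each line was left out in turn, as planned. Without line 379 all 7 genes were called lower (limma adjusted p from 0.0075 to 0.029), while 15% of all probe sets were called lower. The differences then ran from -1.57 for Cp15 to -2.92 for Cp7Fc. Leaving out any other line left none of the 7 called. Line 379 had the highest difference for most of the genes, so leaving it out selects on the values compared. Without lines 158 and 379 together, an alternative chosen after seeing that both have very low ethanol arrays, 7 were called lower, against 22.3% of all probe sets. Without line 379's tomato array 1 alone, 2 of the 7 were called, against 11.5% of all probe sets. Without the tomato array 2 of line 158 1 was called (4.81% of all), and likewise without the tomato array 1 of line 859 (5.0% of all).

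**Figure D2:**
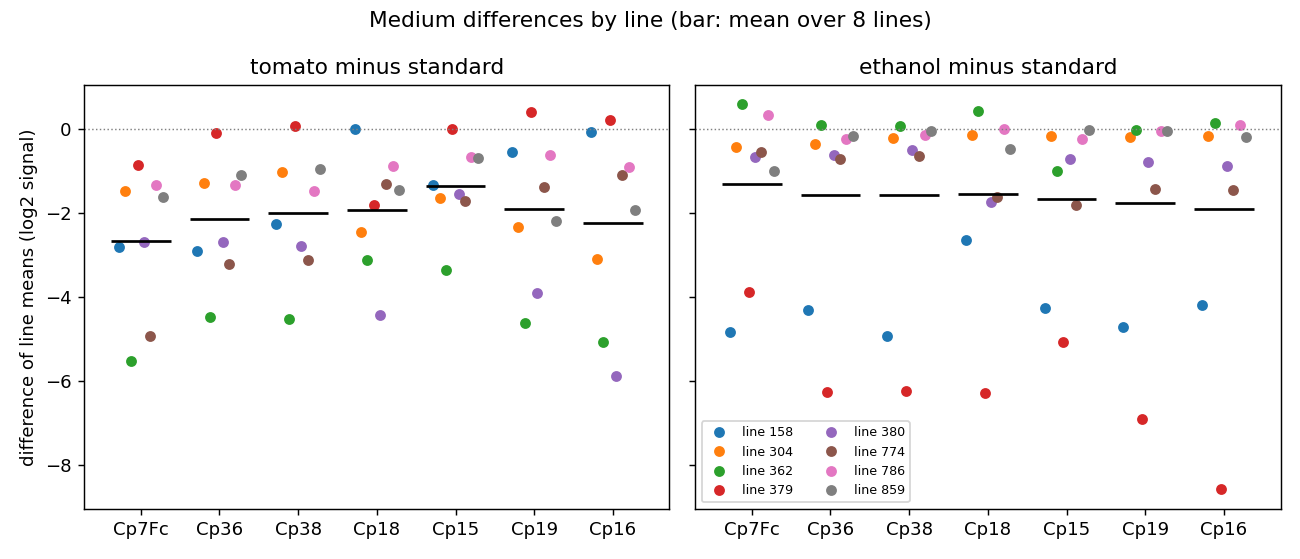
Difference of line means in log2 signal (vertical axis) for each chorion gene, tomato minus standard at the left and ethanol minus standard at the right; each point is 1 line and the bar is the mean over 8 lines. On tomato the lines are spread out, with line 379 the highest for 6 of the 7 genes (158 for Cp18). The lowest is line 362 or, for Cp16 and Cp18, line 380. On ethanol lines 158 and 379 lie far below the other 6, except for Cp18, where line 158 (-2.65) lies nearer to line 380 (-1.75). The lowest Cp18 signal on any array was 5.97, above the lowest signal of each of the other genes.

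The tomato arrays of the 2 title styles differed in chorion signal within the same line. In the 5 lines with a hyphen-titled and a space-titled tomato array, the hyphen-titled array was lower in 5 of 5 lines for each of the 7 genes. Of all tested probe sets 47.7% had a lower mean on the hyphen-titled arrays. How many of them were lower in 5 of 5 lines, or did not overlap, was not counted, so these patterns have no background share. Cp7Fc had 4.81, 0.96, 6.77, 9.16 and 9.20 on the hyphen-titled arrays of lines 158, 362, 379, 786 and 859, against 11.48, 11.11, 13.02, 11.69 and 10.89 on the space-titled arrays of the same lines. Its groups did not overlap. For Cp36 the hyphen-titled arrays of these lines had 7.81, 4.89, 12.45, 11.26 and 12.29, against 13.43, 13.48, 14.16, 13.28 and 12.83 on the space-titled arrays, again with no overlap. Cp16 had 11.16, 2.59, 9.43, 11.45 and 8.97 on the hyphen-titled arrays, against 13.29, 12.47, 13.89, 12.08 and 12.26 on the space-titled arrays. Of the 7 genes Cp38 was the one whose styles overlapped, with 12.80 on line 379's hyphen-titled array and 12.74 on line 859's space-titled array.

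All 7 genes fell in the hyphen-titled arrays in the limma test over these 5 pairs, where 43.1% of all probe sets were called and 25.2% were called lower. The differences, hyphen minus space, were -5.45 for Cp7Fc (SE 1.05, limma adjusted p = 0.0065), -3.70 for Cp36 (SE 1.02, limma adjusted p = 0.021) and -3.27 for Cp38 (SE 1.02, limma adjusted p = 0.033). They were -4.08 for Cp16 (SE 1.08), -3.67 for Cp18 (SE 1.02), -3.43 for Cp19 (SE 0.93) and -3.04 for Cp15 (SE 0.86), each with a limma adjusted p between 0.018 and 0.023. Without the pair of line 158, 4 of the 7 were called. In that fit 28.6% of all probe sets were called. These are differences between arrays of the same line and larval medium. Actin 3′ minus 5′ control signal, which is higher where RNA is more degraded, was lower on the hyphen-titled array in 5 of 5 pairs. Its log2 differences were -0.12 to -0.46. GAPDH 3′ minus 5′ was lower in 2 of 5 pairs (-0.23 to 0.28). The part of RNA integrity in the chorion difference was not tested. A hyphen did not always go with low signal: the mean of the 7 genes was 13.16 on the hyphen-titled tomato array 3 of line 774, within the standard range. On ethanol the early mean ran from 13.35 to 13.74 on the 4 hyphen-titled arrays, with 0 under the standard range, and from 4.33 to 13.78 on the 12 space-titled arrays, which include all the very low ones.

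Tomato and standard arrays that both have a space in the title can be set against each other in these 5 lines, each tomato array against the mean of its line's standard arrays. The early genes were below standard in 4 of 5 lines, with means of -0.14 ± 0.57 for Cp36 and -0.20 ± 0.63 for Cp38 (SD, n = 5 lines). Cp7Fc, Cp15, Cp16 and Cp19 were below standard in 3 of 5 lines and Cp18 in 2, with means from 0.19 for Cp19 to 0.48 for Cp16. The positive means rest on line 379, without which the means of all 7 genes lay between -0.44 for Cp38 and -0.01 for Cp16. A limma fit over all arrays titled with a space, ethanol arrays included, gave tomato minus standard differences from 0.33 for Cp38 (SE 1.04) to 1.03 for Cp16 (SE 1.23), with 0 of the 7 and 0% of all probe sets called. With title style as a block on all single arrays, the differences were -0.77 for Cp15 (SE 0.84) to -1.45 for Cp38 (SE 1.06), and 0 were called (limma adjusted p = 0.9997 for each).

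On ethanol medium very low signal came from few arrays. Cp36 ran from 5.03 to 13.77 on ethanol with a median of 13.37, against the standard median of 13.66, and 7 of 16 arrays lay under the standard range. Cp16 ran from 2.46 to 13.46 with a median of 12.33, with 3 of 16 arrays under the standard range. The early mean was at 4.33 on array 2 of line 158 and 13.39 on array 1 of the same line, both titled with a space. In line 379 both ethanol arrays were low, at 5.29 and 9.02 for the early mean. The lowest early mean of the 13 remaining ethanol arrays was 12.92.

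All 7 genes had a lower mean on ethanol than on standard medium, and 0 of 7 passed the test; 0% of all probe sets were called with limma, and 5.58% had an unadjusted p under 0.05. The median difference of the 7 was -1.59, against 0.00 over all probe sets, and 2 of the 7, Cp15 and Cp18, had an unadjusted p under 0.05. Cp15 averaged 11.91 ± 2.45 on ethanol and 13.58 ± 0.71 on standard medium (SD, n = 8 lines), a difference of -1.67 (SE 0.60, limma adjusted p = 0.84). The other genes differed by -1.31 (Cp7Fc) to -1.92 (Cp16). Without line 379 the differences were -0.89 to -1.18. Without lines 158 and 379 together they were -0.26 for Cp38 to -0.67 for Cp15.

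Tomato was set against ethanol with the same lines. With limma 0 of the 7 were called, against 0.107% of all probe sets, and 0 had an unadjusted p under 0.05, against 6.72% of all. The lower mean was on tomato for 6 of the 7, but this direction was not stable. It turned for all 6 in a fit of space-titled arrays alone, where the differences were 2.49 to 3.71, and with array number as a block, where they were 0.94 to 1.44. Only lines 158, 379 and 786 have space-titled arrays on both media. The fit of space-titled arrays thus leans on lines 158 and 379, which hold the very low ethanol arrays. With title style as a block the direction turned for Cp16, Cp18 and Cp19 (0.13 to 0.21). Cp7Fc averaged 8.89 ± 1.74 on tomato and 10.25 ± 2.36 on ethanol (SD, n = 8 lines), a difference of -1.35 (SE 0.73, limma adjusted p = 0.79). Cp15 was the exception, with 12.21 ± 1.10 on tomato and 11.91 ± 2.45 on ethanol (SD, n = 8 lines), a difference of 0.29 (SE 0.60). Over all arrays, from lowest to highest, the mean levels ran tomato, ethanol, standard for 6 genes and ethanol, tomato, standard for Cp15, with no step between neighbours past the test. Lines 158 and 379 hold the very low ethanol arrays, so leaving them out selects on the values compared; the differences were then -0.94 for Cp15 to -2.64 for Cp7Fc, with 7 called lower and 18.9% of all probe sets called lower. The 3 media comparisons share arrays, the tomato and ethanol ones sharing all standard arrays, so they are given side by side and not as separate evidence.

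Early and late genes did not always move together on single arrays. Each array is set here against the mean of the 2 standard arrays of its own line, late genes first. On 3 arrays both groups were very low: 362 array 3 on tomato (late -8.09, early -8.79), 158 array 2 on ethanol (late -8.59, early -9.16) and 379 array 1 on ethanol (late -7.26, early -8.13). A further 3 tomato arrays kept more of the late than of the early signal. On 158 array 3 the late mean was at -1.46 and the early mean at -5.12, on 774 array 4 at -2.49 and -6.03, and on 786 array 3 at -0.98 and -2.38. The reverse order was seen on 380 array 3 on tomato (late -6.76, early -4.76) and on 379 array 2 on ethanol (late -6.17, early -4.40). It was also seen, with the early genes nearer to standard than the late ones though under the standard range, on 379 array 3 (late -2.68, early -0.79), 859 array 4 (late -2.88, early -1.19) and 304 array 4 (late -2.82, early -1.10) on tomato. The tomato array 1 of line 379 lay above standard, with late at 2.06 and early at 0.75. These arrays were picked out by their values and are described without a test.

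**Figure D3:**
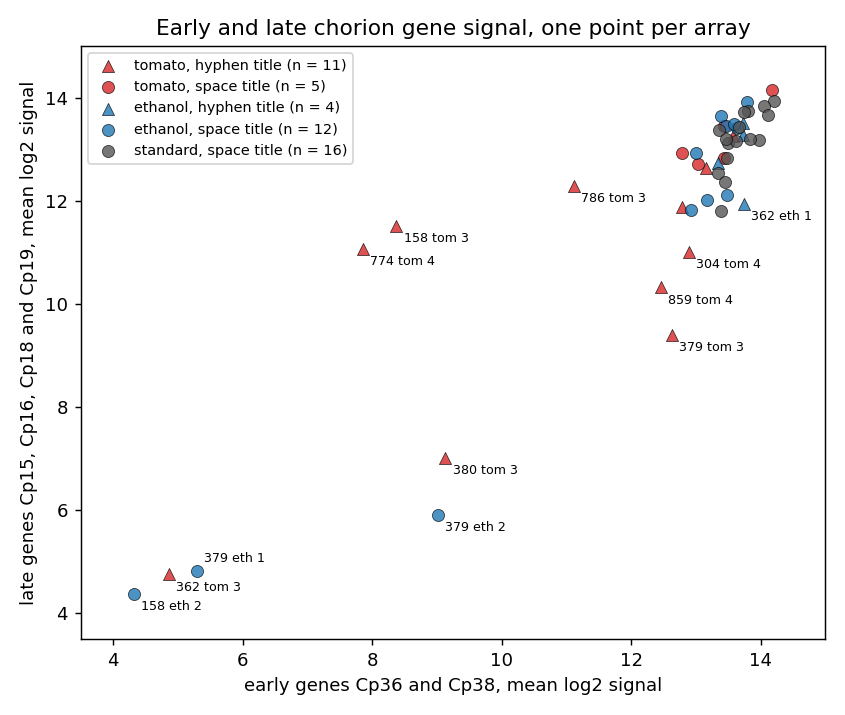
Mean log2 signal of the late genes Cp15, Cp16, Cp18 and Cp19 (vertical axis) against that of the early genes Cp36 and Cp38 (horizontal axis), 1 point per array, coloured by larval medium and shaped by title style. The 16 standard arrays sit at the upper right; labelled arrays leave that corner in 3 directions, with early genes low, with late genes low, or with both low.

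Within the late group single genes parted on some of these arrays. On 380 array 3 on tomato, set against the line's standard mean, Cp16 was at -10.69, Cp18 at -7.58, Cp19 at -6.65 and Cp15 at -2.10. Cp16 and Cp18 had log2 signals of 2.72 and 6.33 there. These were near the 2.59 and 6.06 of 362 array 3 on tomato, which was very low for all 7 genes. The distance between Cp16 and Cp18 on that array is therefore not read as a parting of the 2 genes. On 379 array 3 on tomato Cp18 was at -5.69, while Cp15 was at -2.11, Cp16 at -2.03 and Cp19 at -0.90. The Cp18 signal there, 6.61, was also close to the lowest Cp18 signal of any array (5.97). On 859 array 4 on tomato Cp19 and Cp16 were at -4.20 and -3.58 and Cp15 at -1.22. On 362 array 1 on ethanol Cp15 alone was low, at -2.81, while the other 3 late genes lay between -0.41 and -0.06. Cp7Fc was low together with the early genes on 158 array 3 and 774 array 4 on tomato, at -6.16 and -10.22. On 379 array 3 on tomato it had 6.77, against 10.20 and 11.34 on the line's standard arrays, while the early mean was at -0.79.

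Over lines the late minus early difference moved in both directions between media. Tomato minus standard, it changed by 0.21 ± 1.26 on average (SD, n = 8 lines), from -1.23 in line 304 to 2.09 in line 158, with 4 lines below 0 and 4 above. Ethanol minus standard, it changed by -0.14 ± 0.48 (SD, n = 8 lines), with 5 lines below 0 and 3 above. In both, the mean change was smaller than its spread over lines. The 5 hyphen and space pairs of tomato arrays gave a change of -0.07 ± 2.63 (SD, n = 5 pairs), from -3.20 in line 379 to 3.13 in line 158.

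Correlations between members are given as a description over arrays that share lines and media. Over 48 arrays Cp36 and Cp38 had r = 0.991, pairs of late genes 0.873 to 0.971 and pairs of an early and a late gene 0.816 to 0.920. Over the 16 standard arrays the values were 0.923 for the early pair, 0.625 to 0.909 among late genes and 0.477 to 0.798 between the groups, so that the ranges overlapped. There Cp7Fc had its highest values with Cp18 (0.853) and Cp36 (0.851), and over 48 arrays with Cp36 (0.929) and Cp38 (0.907).

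On standard medium, where all arrays share a title style, 4 of the 7 genes were called for line differences, a share near the 48.6% of all probe sets called. The 4 were the late genes. Cp16 gave a limma adjusted p of 4.2e-05, Cp19 of 0.00047, Cp18 of 0.027 and Cp15 of 0.031, while Cp38 gave 0.13, Cp7Fc 0.29 and Cp36 0.32. Whether late genes differ more between lines than early genes was not itself tested. Leaving out 1 standard array at a time gave 3 to 5 called genes, with adjusted p up to 0.056 for Cp15 and 0.070 for Cp18, and Cp38 also passed (adjusted p = 0.033 with limma) after centring each array on its median.

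Cp16 separated the lines most clearly. Its 2 standard arrays had 13.43 and 13.40 in line 380, 13.29 and 13.46 in line 304, 13.13 and 13.15 in line 774, and 12.93 and 12.41 in line 786. In line 362 they had 12.76 and 12.45, in line 859 12.39 and 12.71, in line 158 12.26 and 12.34, and in line 379 11.49 and 11.44. Lines 380 and 304 overlapped, as did 786, 362 and 859, while line 774 lay between these sets, line 158 just under them, and line 379 below all others. For Cp19 line 304 was highest, with 13.79 on one array and the highest of the 16 values on the other, and line 379 lowest, at 12.68 and 12.29, again apart from the other lines. Cp15 had 11.05 and 13.11 in line 379, the lowest of the 16 values and a value within the range of the other lines. The early mean of line 379 was 13.42 ± 0.05 and that of line 158 13.49 ± 0.01, the lowest 2, (SD, n = 2 arrays each), and line 304 had the highest, with 13.80 and 14.20 on its arrays. Late minus early was lowest in line 379, at -1.34 ± 0.35, and highest in line 380, at -0.12 ± 0.14 (SD, n = 2 arrays each).

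**Figure D4:**
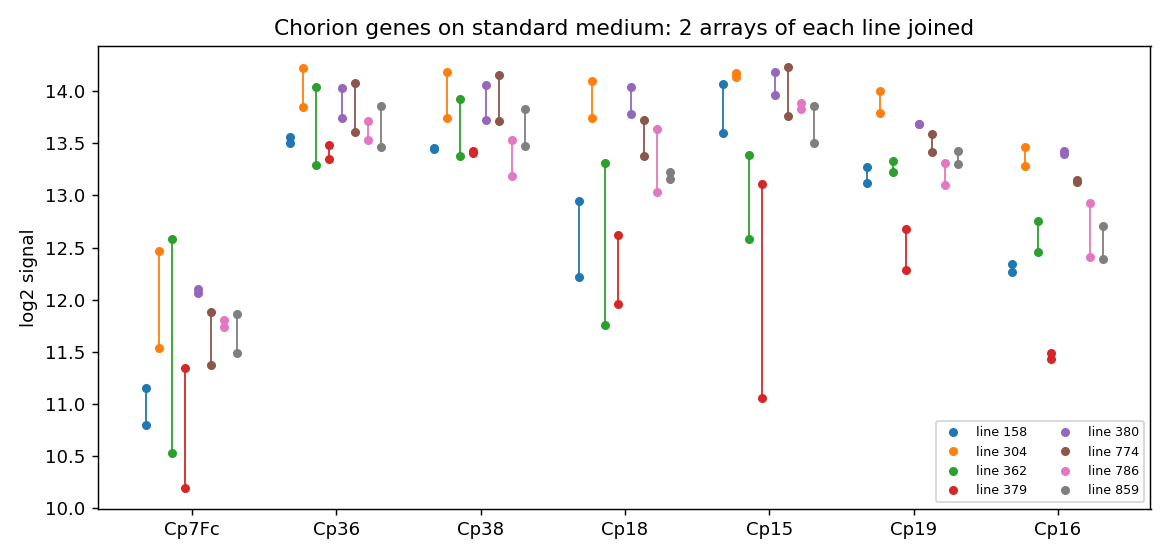
Log2 signal (vertical axis) of each chorion gene on standard medium, the 2 arrays of a line joined by a bar and lines told apart by colour. Line 379 lies below all other lines for Cp16 and Cp19, while the lines overlap for Cp36 and Cp7Fc.

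With all media together the line differences did not pass for any of the 7 genes, with 61.8% of all probe sets called; 1 had an unadjusted p under 0.05, against 68.3% of all. Cp15 had the smallest adjusted p, 0.062 with limma, and Cp7Fc the largest, 0.57. The count was 5 without array 1 of line 158 on ethanol, the space-titled array whose partner was very low, 2 without array 1 of line 379 on tomato, against 74.3% and 64.9% of all probe sets called in those fits, and 1 without array 2 of line 158 or of line 362 on ethanol or either tomato array of line 362 (up to 74.6% of all called). The line by medium interaction was called for none of the 7 and for 0% of all probe sets with limma; 12.9% of all had an unadjusted p under 0.05, and the smallest unadjusted p among the 7 was 0.071, for Cp16.

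Other genes of eggshell formation and of the ovary were read from lists, to be held against 0.329% of all probe sets called lower in tomato minus standard. Of 10 further chorion and eggshell genes, which include dec (defective chorion), 0 were called with limma in tomato minus standard, 10 had an unadjusted p under 0.05 and 10 had a lower mean, with a median difference of -1.91. Of 7 vitelline membrane genes 2 fell, Vm32E changing by -2.46 log2 units (SE 0.54, limma adjusted p = 0.037) and psd by -1.56 (SE 0.36, limma adjusted p = 0.045), and the list median was -1.56. Of 4 genes for hardening the eggshell 3 had a lower mean (list median -1.65) and 1 was called. That was yellow-g, which changed by -2.51 (SE 0.58, limma adjusted p = 0.045), while yellow-g2 differed by -2.92 (SE 0.73, limma adjusted p = 0.056). Of 20 genes of DNA replication and its control that serve chorion gene amplification, 0 were called with limma (median -0.34). An unadjusted p under 0.05 was reached by 2 of the 20, a smaller share than the 21.2% of all probe sets. The 2 were mip130, of a complex that binds the chorion origins, at -0.43 (SE 0.14), and the replication kinase gene Cdc7, at -0.24 (SE 0.09). The licensing factor gene dup differed by -0.66 (SE 0.33) without reaching it. Of 14 regulators of chorion genes and follicle cells 1 fell, tj, a transcription factor of somatic gonad cells, with a difference of -0.89 (SE 0.16, limma adjusted p = 0.015). With limma 0 members were called of 12 germ line (median -0.47), 3 yolk (median -0.37), 11 accessory gland (median -0.19) and 11 testis genes (median 0.01), and 6, 3, 3 and 0 had an unadjusted p under 0.05, against 21.2% of all probe sets.

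Within the 5 tomato pairs, hyphen minus space, 25.2% of all probe sets were called lower and 43.1% in either direction. There 10 of 10 further eggshell genes fell (median -3.24), as did 5 of 7 vitelline membrane genes (median -2.54) and 3 of 4 hardening genes (median -3.36). So did 19 of 20 amplification genes (median -1.25) and 11 of 12 germ line genes (median -1.11). Of 3 yolk protein genes, which fat body and follicle cells both express, 0 were called with limma (0 with an unadjusted p under 0.05, median -0.39). In the male accessory gland list 6 of 11 fell (median -0.44), and of 11 testis genes 3 rose and 0 fell (median 0.17). Of 14 regulators 5 fell and 1 rose, Cf2, by 0.64 (SE 0.19). The summed signal of the germ line list ran from 6196 to 42152 on tomato, from 9450 to 42521 on ethanol and from 20747 to 49236 on standard arrays. That of the accessory gland list ran from 26481 to 58814 on tomato, from 28563 to 70640 on ethanol and from 24617 to 71674 on standard arrays. In whole-body RNA fewer follicle cells at the chorion-forming stages and less chorion RNA per cell cannot be told apart.

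On the arrays with very low chorion signal, picked by their values, the germ line and yolk lists lay nearer to standard than the chorion genes. The yolk mean was 13.82 to 14.65 on standard arrays, near the top of the scale. The brightest probe set of an array had a signal of 16087 to 29257, and whether yolk differences are compressed was not tested. Male tissue genes gave signal on every array, and the male share of the germ line signal is not known. On 362 array 3 on tomato the vitelline membrane mean was at -6.49 from the line's standard mean, the germ line mean at -2.30 and the yolk mean at -2.18, while the accessory gland mean was at -0.22. On 158 array 2 on ethanol the vitelline membrane mean was at -3.59, the germ line mean at -1.77, the yolk mean at -0.64 and the accessory gland mean at -0.02. On 379 array 1 on ethanol the vitelline membrane, germ line and yolk means were at -2.38, -1.15 and -0.30. The late chorion genes of 380 array 3 on tomato were at -6.76, while its vitelline membrane mean was at -1.16 and its germ line mean at -0.55. On 786 array 3 on tomato the vitelline membrane genes, at -3.83, were further from standard than the early chorion genes, at -2.38. Actin 3′ minus 5′ ran from 0.50 to 1.03 on tomato, 0.54 to 1.15 on ethanol and 0.60 to 1.15 on standard arrays. GAPDH 3′ minus 5′ ran from 0.49 to 1.09 on tomato, 0.47 to 1.13 on ethanol and 0.71 to 1.27 on standard arrays. Against the line's standard mean, actin was at -0.53 and GAPDH at -0.33 on 158 array 2 on ethanol, where array 1, with chorion signal in the standard range, had -0.53 and -0.62. Actin was at 0.02 and GAPDH at -0.49 on 362 array 3 on tomato, and on 379 array 1 on ethanol they were at 0.01 and 0.10. On 158 array 3 on tomato actin was at -0.52 and GAPDH at -0.58, and on 379 array 3 on tomato at -0.45 and 0.02. On tomato arrays 3 of lines 380 and 786, tomato arrays 4 of lines 304, 774 and 859 and ethanol array 2 of line 379, actin lay between -0.29 and 0.02 and GAPDH between -0.43 and 0.14. The part of these lists and of RNA quality in the chorion differences was not tested.

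**Figure D5:**
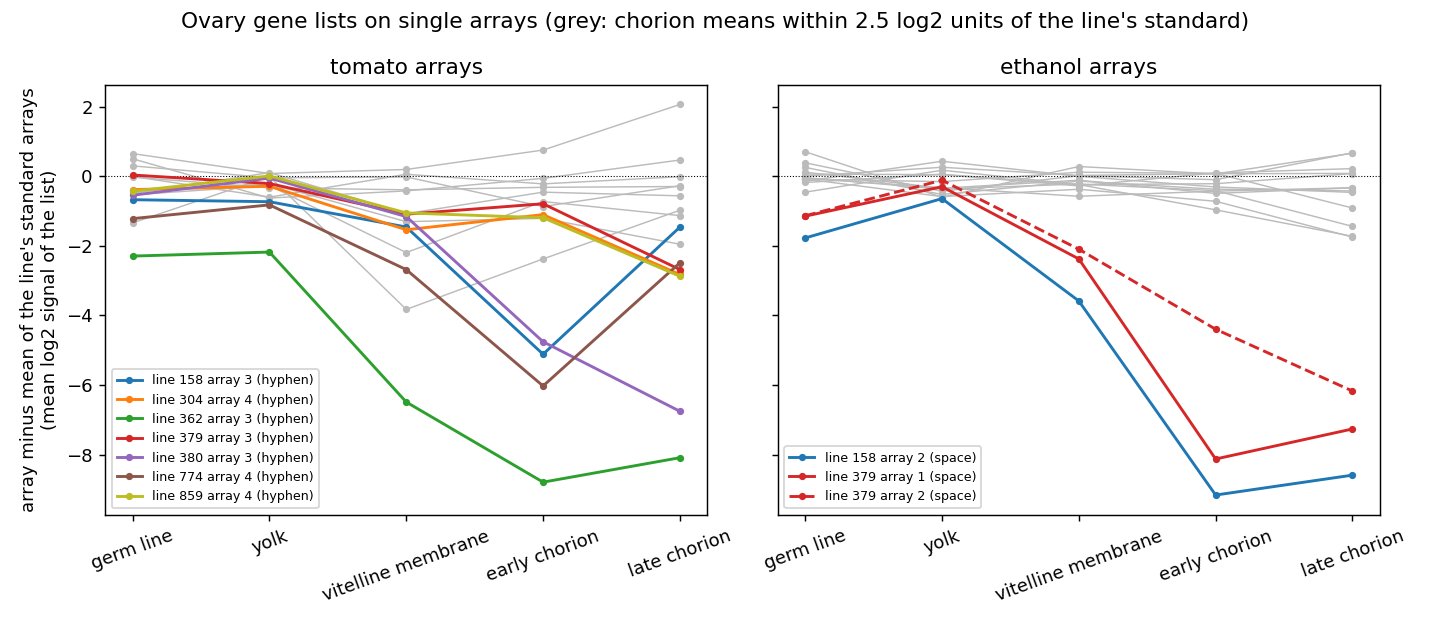
Mean log2 signal of 5 ovary gene lists (horizontal axis, in the order germ line, yolk, vitelline membrane, early chorion, late chorion) minus the mean of the line's standard arrays (vertical axis), 1 connected line per array, tomato left and ethanol right; colour marks arrays with an early or late chorion mean over 2.5 log2 units from standard. The coloured arrays reach -9.16 for chorion genes, while their germ line and yolk values stay at or above -2.30. Yolk signals lie near the top of the scale, with a list mean of 13.82 to 14.65 on standard arrays.

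The genes whose signal went most closely with the mean of the 7 over 48 arrays were CG13084 (r = 0.968) and CG13083 (r = 0.966), followed by CG11381, CG4009, yellow-g2, CG15570, Femcoat, CG13299, CG13113 and CG13114 (r = 0.943 to 0.908). Of these, CG13083, CG13084, CG11381, CG15570 and CG13114 stood in the eggshell list and yellow-g2 in the hardening list. Over the 16 standard arrays the late mean went most closely with CG13083 (r = 0.936), Muc12Ea (r = 0.928), Papst2 (r = 0.926), CG31928 (r = 0.917) and ana3 (r = 0.901). The early mean went most closely there with CG1077 (r = 0.816), yellow-g (r = 0.814), CG4820 (r = 0.812), dhd (r = 0.810), a thioredoxin gene of the female germ line, and CG32645 (r = 0.802). The 2 lists of 5 shared no gene. These are the highest of many correlations over arrays that share lines, and are a description. In line differences on standard medium, the adjusted p with limma was 1.4e-05 for CG13083, 0.00025 for CG13084 and 3.4e-05 for Femcoat, an eggshell gene.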

How the data were processed

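The authors deposited linear signal intensities produced with MAS5, per the submitters' processing notes; its version is not given in the sources used here. Trimming 2% of values at both ends left array means of 500.009 to 500.016. Signals under 1 were raised to 1 before log2, and arrays were not normalised again. Controls (183 of 18952 probe sets) were dropped, and tests ran on the brightest 60% by mean log2 signal (11261, above a signal of 59.7). Names come from the platform annotation, where 13647 probe sets have 1 symbol, 402 several and 4720 none, updated through RefSeq for 13544. Detection calls and scan dates were not used here, so how far low signals lie above background is not known; the number of arrays limits precision.

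Media were compared with limma 3.58.1 (R 4.3.3, trend) on 24 line by medium means, with line and medium as terms (14 residual degrees of freedom). Lines and the interaction were F-tests on 48 arrays (24 residual degrees of freedom), lines on standard medium on 16 arrays (8), and title style on 5 pairs (4). Calls are at a Benjamini-Hochberg adjusted p under 0.05 over all tested probe sets. The fits were tested on simulated data. No 2 arrays held identical values. Arrays were not treated as paired by their numbers, and the check made of this cannot decide it. Of 24 pairs of same-numbered arrays, 10 had deviations correlated over 0.1 (range -0.89 to 0.63). With 2 arrays per group the deviations mirror each other. Where a line has 2 ethanol and standard pairs they repeat 1 value, so the 24 are not independent. The members, gene lists and alternatives were chosen with earlier results of these data known. Named genes are the 7 members, up to 4 per list with the smallest p in tomato minus standard, and the 10 genes (5 each for early and late on standard arrays) most correlated with them; dec and Femcoat were named after their values were seen. Muscle, neuronal and cuticle lists are given with the other observations.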

Additional observations from a re-analysis of the deposited data

Results flagged for a closer look

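In 30 groups, each the 8 line means of a measure on 1 medium, the highest or lowest line was set against the rest by Dixon's test, which flags about 1 group in 20 by chance; 1 was flagged. Cp15 on tomato medium was 9.63 in line 362, against 12.07 in the nearest line and 13.19 in the farthest, a gap of 0.687 of the range (critical value 0.526). The 2 arrays of that line were at 5.94 (array 3, hyphen title) and 13.31 (array 1, space title).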

How the results depend on the processing

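Counts of called chorion genes kept their side of the threshold under most alternatives. For tomato minus standard, 0 were called in the reported fit (1.15% of all probe sets called). With a pseudocount of 16, 1 was called (Cp7Fc, -2.23, adjusted p = 0.046 with limma), against 158 of all 11261 probe sets. Without lines 158 and 379, 7 were called (39.0% of all). For line over media, 1 was called with the replicate block, against 8806 of all 11261 probe sets. In arrays titled with a space 1 was called, against 7958 of all. For tomato minus ethanol 7 were called without lines 158 and 379 (26.9% of all). In a fit over arrays titled with a space, ethanol included, tomato minus standard reversed to 0.66 (Cp7Fc), 0.34 (Cp36), 0.33 (Cp38), 0.67 (Cp18), 0.67 (Cp15), 0.68 (Cp19) and 1.03 (Cp16), and tomato minus ethanol to 2.49 (Cp7Fc), 2.53 (Cp36), 2.55 (Cp38), 2.83 (Cp18), 3.15 (Cp19) and 3.71 (Cp16). With title style as a block tomato minus ethanol reversed for Cp18 (0.13), Cp19 (0.19) and Cp16 (0.21). Within the 5 lines alone, space-titled tomato arrays averaged -0.14 (Cp36) and -0.20 (Cp38) from standard, so the early genes' turn rests on that fit. Cp15 reversed in tomato minus ethanol without lines 158 and 379 (-0.94). The cause was not tested; fits on single arrays also take their error from single arrays.

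With the array number as a replicate block on single arrays, tomato minus standard reversed for Cp15 (0.043) and tomato minus ethanol for Cp7Fc (1.04), Cp36 (0.97), Cp38 (0.94), Cp18 (1.09), Cp19 (1.33) and Cp16 (1.44); the numbers of the hyphen-titled tomato arrays do not occur among standard arrays. The block left the counts at 4 for line on standard medium and 0 for the interaction and the media.

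Leaving out 1 array or line at a time gave 0 to 7 called genes in tomato minus standard, 0 to 0 in ethanol minus standard and in tomato minus ethanol, 0 to 5 in line over media, 0 to 0 in the interaction, 3 to 5 in line on standard medium and 4 to 7 in hyphen minus space. Tomato minus ethanol then ranged from -0.39 to 0.82 for Cp15, -1.62 to 0.38 for Cp16, -1.07 to 0.11 for Cp18 and -1.20 to 0.50 for Cp19. It ranged from -1.52 to 0.013 for Cp36 and -1.39 to 0.19 for Cp38, so its sign changed for these 6. For Cp7Fc it stayed below 0 (-2.01 to -0.68), but reversed in arrays titled with a space (2.49) and with the array number as a block (1.04). The fit of space-titled arrays leans on lines 158 and 379, which hold the very low ethanol arrays. The sign of tomato minus ethanol is thus not settled for any of the 7. The late minus early change ran from 0.17 to 0.51 in tomato minus standard and from -0.24 to -0.03 in ethanol minus standard over its alternatives.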

Other observations

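Of 27 cuticle genes 0 were called in tomato minus standard (median 0.07), as were 0 of 4 muscle (median 0.18) and 0 of 4 neuronal genes (median 0.28). Within the tomato pairs, hyphen minus space, 4 cuticle genes rose (median 0.53), 0 muscle genes were called (median 0.37) and 1 neuronal gene rose (median 0.33). For line differences on standard medium, 7 of 10 further eggshell genes, 14 of 20 amplification genes, 7 of 12 germ line genes, 2 of 7 vitelline membrane genes, 0 of 4 hardening genes and 0 of 3 yolk genes were called, against 48.6% of all probe sets. In ethanol minus standard 0 members of any list were called, with medians of -1.13 for the further eggshell genes, -0.67 for vitelline membrane and -0.21 for amplification genes.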
